A study of Homo sapiens with 3 samples.

Results

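The comparison set 1 array of SKBR3 cells given estradiol against 1 array of the same line given the peptide ERα17p, and so covered 2 of the 3 arrays of the study. The rule took the log2 difference, estradiol minus ERα17p, for every probe set with exactly 1 gene symbol, and the value of a gene on an array was the median over its probe sets, which gave 19775 genes from 41091 probe sets. SKBR3 is an established human breast cancer line with amplification of the growth factor receptor gene ERBB2, in which oestrogen receptor α is missing and the membrane oestrogen receptor GPER1 is present. Cells spent 4 h in 10% serum stripped of steroid hormones with charcoal, and then for 3 h with 1 µM estradiol, 1 µM ERα17p or, on the third array, 0.1% ethanol as vehicle. ERα17p is a synthetic peptide whose sequence is copied from oestrogen receptor α. The labels name one medium for growth and another for the treatment, and do not give the solvent of the peptide. Nothing says whether the samples came from separate experiments.

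Because each side had 1 array, the differences carry no error and no p-value, and cannot be set against the spread between cultures. "Lower" and "higher" are used for genes at least 1.5-fold apart (0.585 on the log2 scale) and always describe the estradiol array against the ERα17p array. Each deposited value is the distance of a probe set from the authors' baseline, in log units whose base was taken as 2. A value of 0 therefore means the baseline and not absence of signal. Differences between arrays can be read gene by gene, but levels cannot, and the labelled cell type could not be checked against its markers. The vehicle array stood apart, with a standard deviation over probe sets of 0.27 against 0.12 for estradiol and 0.13 for ERα17p. It does not enter the difference, and its values are given only to show where the third array lay.

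Estradiol acts through nuclear oestrogen receptors, which bind DNA, and through GPER1, which signals from membranes to kinases such as ERK. Bone morphogenetic proteins (BMPs) signal through receptor kinases to SMAD proteins, and the ID genes are among the best known early targets of that pathway. ID proteins have a helix-loop-helix domain without a DNA-binding part, so they hold their partner factors off DNA. Chemokine genes such as CXCL8 answer to NF-kB, interferon-stimulated genes to interferon or sensed viral RNA, and genes such as DUSP4 and FOSL1 to ERK.

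Of the 19775 genes, 41 (0.207%) were lower with estradiol and 29 (0.147%) were higher. The 41 included all 4 ID genes, the SMAD inhibitor gene SMAD7, 6 chemokine genes and 4 interferon-stimulated genes. The 29 were led by DUSP4 and FOSL1. The lower side reached further: 7 genes were at least 2-fold lower, whereas no gene was 2-fold higher and the widest difference on that side was 0.79. At the smaller step of 1.25-fold 476 genes were lower and 590 higher. That turned order came from genes with 1 probe set (375 against 503), since among genes with at least 2 the lower side stayed ahead (101 against 87). Over all genes the difference had a median of -0.01 and a standard deviation of 0.16 between genes. On the lower side IL18, PDHA2 and a gene known by a locus number lay just inside the rule (-0.60, -0.59 and -0.59), and C3orf33, CIB4 and IP6K3 just outside it (-0.58, -0.56 and -0.56). On the higher side the members nearest the rule were CCDC146, TFF1 and DOK7 (each 0.59), with LNCARSR, IL17C and LINC00629 next outside (each 0.58).

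**Figure D1:**
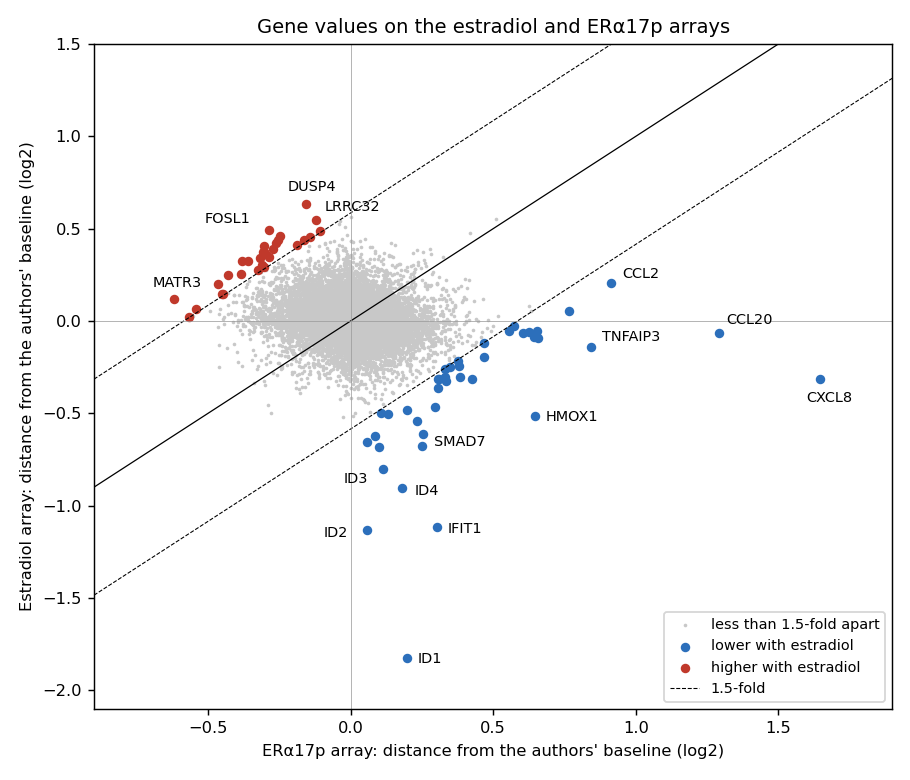
Distance of each of 19775 genes from the authors' baseline with ERα17p (x axis, log2) and with estradiol (y axis, log2), with the line of equal values and dashed lines at 1.5-fold. The 41 lower genes (blue) spread further than the 29 higher genes (red): ID1 and ID2 lie far down on the estradiol axis, and CXCL8 and CCL20 far out on the ERα17p axis.

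The plot of gene values separates different kinds of lower gene. For ID1, ID2, ID3, ID4 and SMAD7 it was the estradiol array that lay far from the baseline, and the ERα17p array lay near it. For CXCL8, CCL20 and TNFAIP3 the ERα17p array lay far above the baseline and the estradiol array near it. Over the 41 lower genes the estradiol array was the farther from the baseline in 18 and the ERα17p array in 23. In 39 of the 41 the arrays lay on opposite sides of it, as they did in all 29 higher genes. The rule picks genes with a wide gap between these arrays, and the share over all genes was not counted, so those counts are descriptions only.

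The 4 ID genes were lower with estradiol by 1.89-fold (ID3) to 4.06-fold (ID1), and they include the widest difference of all 19775 genes. The sequences below are the 250 bases before each gene's start in RefSeq (build GRCh38.p14), printed 5′ to 3′ on the gene's own strand because the 4 family members differed together. ID1 lies at chr20:31605039-31605288, plus strand, ID2 at chr2:8681806-8682055, plus strand, ID3 at chr1:23559502-23559751, minus strand, and ID4 at chr6:19837120-19837369, plus strand. Capitals mark the letters CCAAT and TATAA on either strand (ATTGG and TTATA where they are read on the other strand).
ID1: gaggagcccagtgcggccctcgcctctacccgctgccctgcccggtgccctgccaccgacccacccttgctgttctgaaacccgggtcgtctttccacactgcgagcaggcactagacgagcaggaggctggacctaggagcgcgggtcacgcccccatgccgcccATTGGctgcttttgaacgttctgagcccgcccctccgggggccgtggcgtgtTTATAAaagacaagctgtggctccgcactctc
ID2: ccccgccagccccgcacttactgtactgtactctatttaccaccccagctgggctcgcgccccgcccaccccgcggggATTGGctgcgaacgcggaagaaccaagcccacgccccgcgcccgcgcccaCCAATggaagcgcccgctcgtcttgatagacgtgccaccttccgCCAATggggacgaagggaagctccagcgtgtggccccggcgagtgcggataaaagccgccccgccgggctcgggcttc
ID3: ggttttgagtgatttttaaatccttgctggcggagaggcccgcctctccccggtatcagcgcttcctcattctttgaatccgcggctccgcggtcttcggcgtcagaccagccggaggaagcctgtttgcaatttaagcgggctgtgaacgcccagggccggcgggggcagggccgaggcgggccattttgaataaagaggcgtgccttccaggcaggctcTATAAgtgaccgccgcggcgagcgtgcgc
ID4: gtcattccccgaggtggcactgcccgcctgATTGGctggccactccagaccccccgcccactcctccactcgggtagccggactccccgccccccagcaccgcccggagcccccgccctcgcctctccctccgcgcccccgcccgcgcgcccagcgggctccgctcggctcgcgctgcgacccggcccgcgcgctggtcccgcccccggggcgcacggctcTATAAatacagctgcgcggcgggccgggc

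A script found TATAA in the windows of ID1, ID3 and ID4, where on the gene's own strand it began 31, 29 and 29 bases before the start, and not in that of ID2. CCAAT was in the windows of ID1 (1 match), ID2 (3 matches) and ID4 (1 match), and not in that of ID3. Among all 21490 promoter windows of 250 bases, 14.8% hold TATAA and 32.4% hold CCAAT. A match says only that the letters are there.

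ID1 read -1.82 with estradiol and 0.20 with ERα17p, a difference of -2.02 (4.06-fold), from 1 probe set. ID2, which shares most of the known activities of ID1, read -1.13 against 0.06. Its difference of -1.19 came from a pair of probe sets with nearly the same value, -1.17 and -1.21. For ID4 the arrays read -0.91 and 0.18, a difference of -1.09. Its 5 probe sets did not give 1 size: 3 read -1.48, -1.21 and -1.09, and the others -0.26 and -0.07, so all 5 were below 0 but only 3 passed the rule. ID3 read -0.80 against 0.11, a difference of -0.92 from 1 probe set. On the array labelled vehicle ID1 to ID4 lay at -0.15, 0.02, 0.16 and 0.26. For all 4 that was nearer to the ERα17p array than to the estradiol array.

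Around the ID genes, the BMP and TGF-β pathway was counted by the roles of its members. Among 11 measured SMAD feedback inhibitors and co-repressors, SMAD7 was lower and none was higher. SMAD7, which blocks the receptors of the pathway, read -0.68 with estradiol and 0.25 with ERα17p, a difference of -0.93 from 1 probe set. In this list 9 of 11 genes had a difference below 0, where 53.9% of all genes did. The list median was -0.16, and 0.00 when each gene was read by its smallest probe set. The next members were the co-repressor gene SKIL (-0.50), the decoy receptor gene BAMBI (-0.45) and PMEPA1 (-0.38), a gene that dampens SMAD signalling, each short of the rule. The 5 probe sets of SKIL ran from -0.67 to -0.19, all below 0.

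Other early targets of the pathway had 2 lower genes of 15, both homeobox genes. DLX3, which acts in epidermis and placenta, read -0.61 against 0.25, a difference of -0.87 from 1 probe set. DLX2, known from forebrain and jaw development, had a gene value of -0.63, the middle of unequal probe sets at -1.08 and -0.18. In this list 12 of 15 genes were below 0, with a median of -0.12, among them the repressor gene HEY1 (-0.46), KLF10 (-0.44) and JUNB (-0.30). A further homeobox gene outside the list, HOXC13 of hair and nail, was lower as well (-0.66 against 0.06, a difference of -0.72 from 1 probe set).

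Upstream of these targets no gene passed the rule. Of 20 receptors and signal-carrying SMADs, 17 were below 0, with a median of only -0.06. SMAD9, which carries BMP signals, was the lowest at -0.52, with probe sets at -0.92 and -0.13, and the receptor gene TGFBR1 was the highest at 0.37. The 26 BMP and TGF-β ligands had a median of 0.04, which was -0.02 among those with at least 2 probe sets, and the 14 secreted BMP antagonists of 0.07. Helix-loop-helix factors, a list with E proteins and HES/HEY repressors and not only partners of ID proteins, had no gene past the rule among 23. Their median was 0.00.

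The second group of lower genes were chemokines and other NF-kB targets. Of 30 measured chemokine genes 6 were lower and 1, CCL19, was higher. The list median was 0.00, with 15 genes below 0 and 15 above. The lower members were single genes standing far out rather than a shift of the family, and the list mean was -0.14.

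CXCL8, the neutrophil attractant interleukin 8, read -0.31 with estradiol and 1.65 with ERα17p, a difference of -1.96 (3.89-fold). Its probe sets disagreed in size, at -2.69 and -1.23, and both passed the rule. CCL20, which draws cells with the receptor CCR6, read -0.06 against 1.29, a difference of -1.35 from 1 probe set. These were the genes farthest above the baseline on the ERα17p array. CXCL1, another neutrophil attractant, read -0.32 against 0.43 (-0.74), and CCL2, a monocyte attractant, 0.20 against 0.91 (-0.71). The interferon-induced genes CXCL11 and CXCL10, which attract T cells, had differences of -0.72 and -0.60.

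The window before the CXCL8 start (chr4:73740319-73740568, plus strand, GRCh38.p14) is shown because CXCL8 had the widest difference of the chemokines and its promoter is a textbook NF-kB target. Capitals mark GGNNTTTCC, a κB letter pattern, and TGANTCA, an AP-1 letter pattern, each searched on both strands.
CXCL8: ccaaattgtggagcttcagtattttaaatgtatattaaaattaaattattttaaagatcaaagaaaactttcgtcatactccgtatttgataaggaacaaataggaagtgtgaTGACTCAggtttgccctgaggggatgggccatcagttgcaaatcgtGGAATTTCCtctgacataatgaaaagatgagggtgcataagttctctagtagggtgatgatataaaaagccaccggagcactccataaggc

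The κB letters lay 91 to 83 bases before the start and the AP-1 letters 137 to 131 before it. RefSeq starts were found for 33 of the 41 lower genes (41 windows) and for 19 of the 29 on the higher side (23 windows), and for 15384 of all genes. The κB letters were in 17.1% of the lower genes' windows, 8.70% of the higher genes' windows and 5.71% of all windows. Among the lower genes they were in the windows of CXCL8, CXCL1, CXCL10, CXCL11, CCL20, TNFAIP3 and NEURL3. The AP-1 letters were in 7.32% of the lower genes' windows, 8.70% of the higher genes' windows and 5.37% of all windows. Each share on the higher side stands for 2 of 23 windows.

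Beyond chemokines, TNF, the cytokine that drives NF-kB, read -0.09 against 0.64 (-0.73), and IL18, a cytokine stored as a precursor, -0.22 against 0.38 (-0.60). They were the 2 lower genes among 24 cytokines and inducible adhesion molecules. TNFAIP3, which encodes the NF-kB inhibitor A20, read -0.14 against 0.84. Its difference of -0.98 rested on probe sets at -0.90 and -1.07, which were close to each other. It was the only one of 19 NF-kB subunits and feedback inhibitors past the rule, and the list median was -0.02. SELE, the endothelial adhesion molecule gene, stopped short at -0.55. NOD2, a sensor of bacterial cell wall, read -0.50 against 0.11 (-0.60), and NEURL3, a ubiquitin ligase gene, -0.19 against 0.47 (-0.66).

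The array labelled vehicle lay far above both others in these genes. It read 7.12 for CCL20, 6.93 for CXCL8, 6.10 for CXCL1, 5.30 for TNF and 4.84 for TNFAIP3. The ERα17p array stood nearer to the vehicle array than the estradiol array did, but both lay far below it. Minus the vehicle array, ERα17p and estradiol read -5.28 and -7.24 for CXCL8, and -4.65 and -5.38 for TNF. Whether the content of the vehicle array bears on the difference between the treated arrays was not tested.

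**Figure D2:**
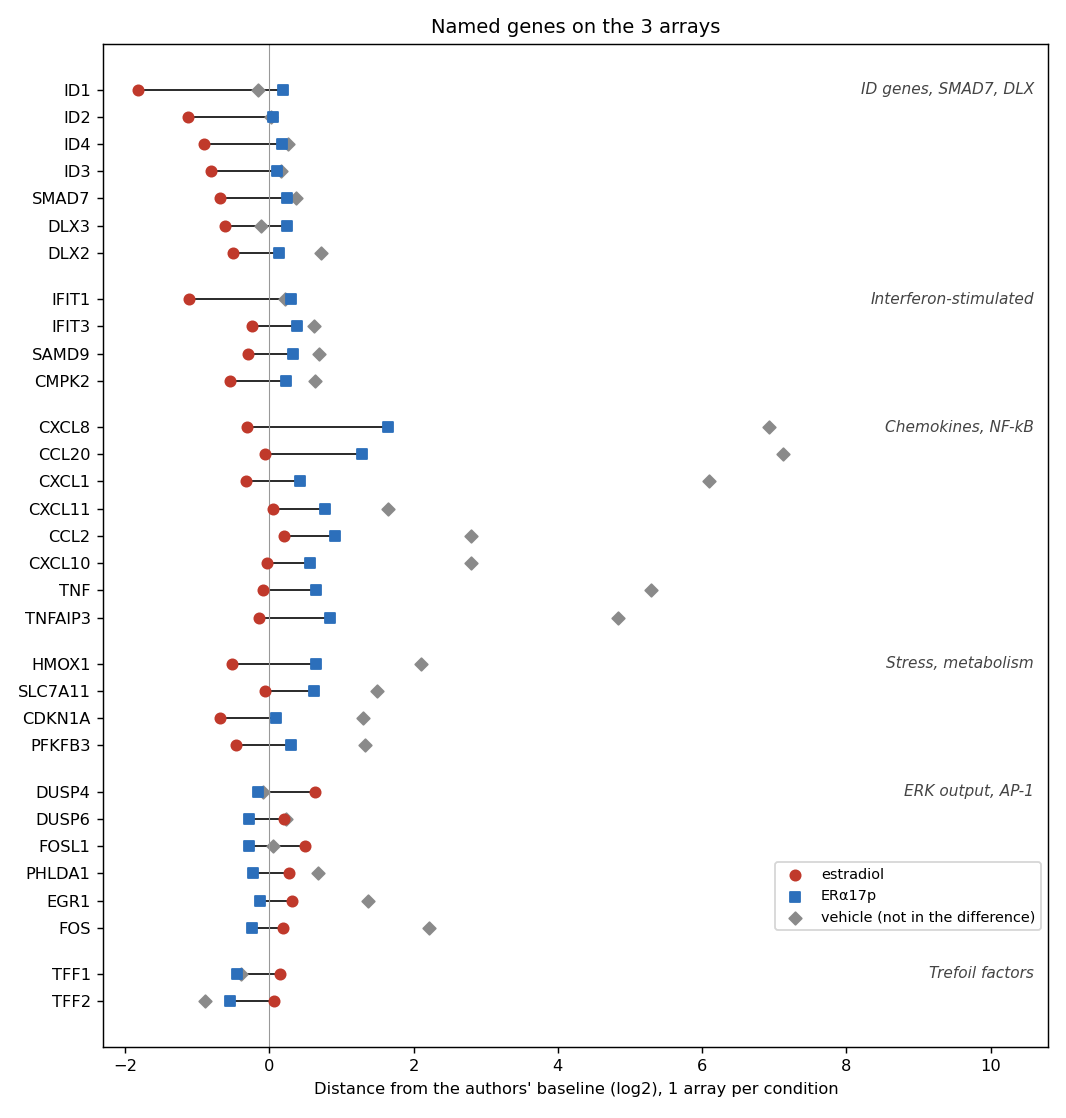
Distance from the authors' baseline (x axis, log2) of 31 genes (rows) on the estradiol array (red circles), the ERα17p array (blue squares) and the array labelled vehicle (grey diamonds, not in the difference), with a line joining the treated arrays. In the ID genes the vehicle array lies next to ERα17p, whereas in CXCL8, CCL20, CXCL1, TNF and TNFAIP3 it lies 4.84 to 7.12 above the baseline.

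Interferon-stimulated genes were the third group. Of 52 measured, 4 were lower and none was higher. In this list 44 of 52 genes (84.6%) were below 0, where 53.9% of all genes were, and the median was -0.18. That lean was not particular to this list. The share below 0 was 85.7% among G1/S and replication genes and 83.3% among sterol and fatty acid synthesis genes. Across the lists it ran from 11.1% (Sprouty and SPRED genes) to 100% (ID genes). IFIT1, whose protein binds foreign RNA, read -1.12 with estradiol and 0.30 with ERα17p, a difference of -1.42 (2.67-fold) from 1 probe set. CMPK2, a mitochondrial nucleotide kinase gene, read -0.54 against 0.23 (-0.77). SAMD9, an antiviral gene, had a gene value of -0.63 from probe sets at -0.39 and -0.87. IFIT3, the partner of IFIT1, had -0.63 from very unequal probe sets, -0.10 and -1.15.

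Of the list's members short of the rule, the widest were GBP2 (-0.48), which encodes a GTPase, and RIGI (-0.47), a sensor of viral RNA. Their probe sets agreed closely. GBP2 had -0.53 and -0.43, and RIGI had -0.54, -0.48 and -0.45. The 19 interferons, interferon receptors and their kinases had no gene past the rule and a median of 0.00. On the array labelled vehicle IFIT1 lay at 0.22, near the ERα17p value, while CMPK2, SAMD9 and IFIT3 lay at 0.64, 0.69 and 0.62, above both treated arrays.

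IFIT1 and IFIT3 are neighbours on chromosome 10 with IFIT2 and IFIT5, which were looked at for that position. IFIT5 had -0.29 with both probe sets below 0. IFIT2 had -0.41, the middle of probe sets at -1.16 and 0.34, which lay on opposite sides of 0. The window before the IFIT1 start (chr10:89392373-89392622, plus strand, GRCh38.p14) is shown for its matches to GAAANNGAAA, the letters of an interferon response element, in capitals.
IFIT1: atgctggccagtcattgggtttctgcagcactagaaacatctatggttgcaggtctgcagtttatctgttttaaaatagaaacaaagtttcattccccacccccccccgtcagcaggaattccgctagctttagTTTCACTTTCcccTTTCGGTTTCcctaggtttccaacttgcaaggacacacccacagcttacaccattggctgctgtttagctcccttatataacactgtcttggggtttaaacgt

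Both matches are on the strand opposite to the gene, 116 to 107 and 103 to 94 bases before the start. The same letters were in 14.6% of the lower genes' windows, in 0% of the higher genes' windows and in 2.55% of all windows. The genes were IFIT1, IFIT3, SAMD9, CXCL10 and PDHA2, the last a testis form of a pyruvate dehydrogenase subunit.

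Stress and metabolic genes made up a further set of lower genes, with few from any one pathway. HMOX1, which encodes the haem-degrading enzyme heme oxygenase and answers to NRF2, read -0.51 against 0.65, a difference of -1.16 from 1 probe set. SLC7A11, the cystine transporter gene, had -0.69. Its probe sets read -0.81, -0.69 and 0.01, and it was the only lower gene with several probe sets that did not all share a sign. Among 21 NRF2 targets these were the 2 lower genes. In that list 16 of 21 were below 0, where 53.9% of all genes were, and the median was -0.06. The next was GCLM, a subunit of glutathione synthesis, at -0.37 with 3 probe sets between -0.42 and -0.31.

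CDKN1A, the cell cycle inhibitor p21, read -0.68 against 0.10, a difference of -0.78 from 1 probe set, and was the only p53 target of 23 past the rule. In that list 17 of 23 were below 0, where 53.9% of all genes were, and the median was -0.13. PMAIP1, which encodes the death factor NOXA, reached -0.55 with both probe sets below 0, and the growth arrest gene GADD45A -0.47. PFKFB3, a regulator of glycolysis, read -0.47 against 0.30 (-0.76), and was the only lower gene of 26 hypoxia and glycolysis genes, whose median of -0.01 turned above 0 when the median of all genes was subtracted or the arrays were quantile normalised. Among 29 ATF4 targets SLC7A11 alone passed the rule, and the stress gene DDIT4 followed at -0.42.

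The remaining lower genes with a symbol belonged to none of the lists. EDN2, a vasoconstrictor peptide gene, read -0.62 against 0.08 (-0.71), and the kinase gene NUAK1 -0.25 against 0.35 (-0.60). TCIM, a regulator of Wnt signalling, had -0.75, N4BP3 -0.68, TCN1, a vitamin B12 carrier gene, -0.66, and TTPA, a vitamin E carrier gene, -0.62. Each was read by 1 probe set. In all, 24 of the 41 lower genes belonged to at least 1 of the lists, and 7 of the 29 higher genes did. The lists were chosen with results of these arrays known, so those shares support nothing.

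On the higher side the gene with the widest difference was DUSP4, a phosphatase gene that ERK signalling switches on. Its protein then removes phosphate from ERK. DUSP4 read 0.63 with estradiol and -0.16 with ERα17p, a difference of 0.79 (1.73-fold). Its 3 probe sets gave 0.82, 0.72 and 0.68, so each alone passed the rule. Among 10 MAP kinase phosphatases it was the only gene past the rule. DUSP6, which is specific for ERK, came next at 0.49, with probe sets at 0.79, 0.53 and 0.18. The list median was 0.08, and it lay below 0 when each gene was read by its smallest probe set (-0.02) or without probe sets whose names end in _x_at or _s_at (-0.01).

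FOSL1, the AP-1 gene for FRA1, which ERK also drives, read 0.49 against -0.28, a difference of 0.78 from 1 probe set. It was the only one of 14 AP-1 and small MAF genes past the rule, with FOS, the founding member, at 0.44 and JUNB at -0.30. In the list of 25 ERK-dependent output genes none passed the rule. There 18 of 25 were above 0, where 45.9% of all genes were, and the median was 0.05. PHLDA1 reached 0.49 with 6 probe sets between -0.06 and 0.91, and the early response factor gene EGR1 0.44 with 3 probe sets between 0.28 and 0.62.

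Of 9 Sprouty and SPRED genes, which restrain ERK signalling, none passed the rule and 8 were above 0, with a median of 0.15. SPRY4 had 0.33, SPRY1 0.30 and SPRY2 0.25. The 16 measured ERBB receptors and members of the RAS to ERK cascade had a median of -0.01, above 0 once the median of all genes was subtracted, and the 9 EGF family ligands had one of -0.04. For DUSP4 and FOSL1 the array labelled vehicle lay at -0.08 and 0.05, between the treated arrays. For FOS and EGR1 it lay above both, at 2.22 and 1.37.

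A pair of trefoil factor genes that neighbour each other on chromosome 21 were both just past the rule. TFF1, the best known oestrogen target of ER-positive breast cells, read 0.15 with estradiol and -0.45 with ERα17p, a difference of 0.59. TFF2, a stomach mucus factor, read 0.07 against -0.54 (0.61). Each was read by 1 probe set. In TFF2 the array labelled vehicle lay below both, at -0.89, and in TFF1 at -0.40 between them. They were the 2 higher genes of 18 trefoil factors and mucins, whose median was 0.08, and -0.02 among genes with at least 2 probe sets. MUC5B, an airway mucin gene, had 0.50 from probe sets at 0.90 and 0.11, and MUC12 had 0.39.

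The other higher genes shared no list of pathway genes. MATR3, a nuclear RNA-binding protein gene, read 0.12 against -0.62 (0.74). SIT1, an adaptor gene of lymphocytes, and LILRA4, a receptor gene of plasmacytoid dendritic cells, both had 0.71. They were the 2 higher genes among 15 leukocyte markers, a list with a median of 0.07, 7 genes below 0 and 8 above. CCL19, a lymph node chemokine gene, read 0.25 against -0.38 (0.64). LRRC32, whose protein holds latent TGF-β, read 0.54 against -0.12 (0.67).

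NDST3, an enzyme gene of heparan sulfate, had 0.69, ERC2, a gene of nerve endings, 0.69, and PRAMEF11, BTBD16 and the immunoglobulin segment IGHV7-81 0.71, 0.68 and 0.67. All of these were read by 1 probe set. TENT5C, a poly(A) polymerase gene, was the only higher gene beside DUSP4 with more than 1, and had 0.61 from 0.54 and 0.69. Long noncoding RNA genes made up 8 of the 29 higher genes (27.6%), among them PRDM10-DT (0.68), OTX2-AS1 (0.68), LINC00423 (0.66) and NTRK3-AS1 (0.66). They made up 12.2% of the lower genes and 13.4% of all genes. Noncoding genes also lay slightly higher throughout, with a median of 0.03 over 2656 genes against -0.02 over 16520 protein-coding genes.

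The gene values of the receptors themselves differed little, but their probe sets did not agree. ESR1, the gene of oestrogen receptor α, had 0.04, ESR2 -0.05, EGFR 0.00 and ERBB2 -0.03. Probe sets ran from -0.26 to 0.28 in ESR1, from -0.29 to 0.38 in ESR2 and from -0.26 to 0.10 in ERBB2. In EGFR they ran from -0.76, which is past the rule, to 0.30. GPER1 read -0.01 with estradiol and 0.17 with ERα17p, a difference of -0.18 with both probe sets below 0. Of 36 genes known to answer to oestrogen in ER-positive breast cells only TFF1 passed the rule. The list median was -0.05, and 0.01 with each gene's smallest probe set, and 23 genes were below 0. Members with the widest differences below 0 were IRS1 (-0.38) and IGFBP4 (-0.37), both of insulin-like growth factor signalling. Of 19 genes reported to respond through GPER1 in breast cancer cells TNF was the 1 past the rule, on the lower side, and the median was -0.11. Of 19 AhR pathway and oestrogen-metabolising genes none passed, and the median was 0.01. The full oestrogen response element, GGTCANNNTGACC, was in 0% of the windows on either side of the rule and in 0.0233% of all windows. Its 5-letter side GGTCA was in 36.6%, 30.4% and 31.2%.

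Several large lists had no gene past the rule but most members on one side. For scale, 53.9% of all genes were below 0, and protein-coding genes as a class had a median of -0.02. The list medians given here were all smaller than the standard deviation of 0.16 between all genes. That is a spread of single genes, so it does not say how far a list median would vary. Of 30 sterol and fatty acid synthesis genes 25 were below 0, with a median of -0.11, led by INSIG1 (-0.45, with 3 probe sets between -0.45 and -0.39) and HMGCS1 (-0.45), both sterol-regulated. Of 35 G1/S and replication genes 30 were below 0 (median -0.09), of 42 mitotic genes 34 (median -0.05), of 31 replication-dependent histone genes 25 (median -0.11), and of 24 YAP and SRF targets 21 (median -0.07). Heat shock genes were below 0 in 14 of 17 cases, with a median of -0.07. The ribosomal protein genes, 37 in number, lay at -0.01, and that sign turned when the median of all genes was subtracted. The 20 Wnt targets and antagonists had a median of 0.06 and the 18 Notch genes of 0.03, both below 0 with each gene's smallest probe set (-0.01 and -0.03). Luminal and ERBB2-amplicon genes had no member past the rule among 16 and a median of -0.01 (0.04 without probe sets whose names end in _x_at or _s_at), and 13 fibroblast and endothelial markers had one of 0.05.

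The only repeated reading in these data is that of a gene by several probe sets, which share the RNA and the array and are not replicates of a treatment. Of the 41 lower genes 32 had 1 probe set, and of the 29 higher genes 27. Among the 10523 genes with at least 2 probe sets the rule was passed by 9 on the lower side (0.0855%) and by 2 on the higher side (0.019%). Of the 9, all but SLC7A11 had every probe set below 0, and both higher genes had every probe set above 0. Of all 10523 such genes, 4051 (38.5%) had probe sets of one sign only. The rule used the median of these same probe sets, so that shared sign is a description and no sign of reliability. Every probe set alone passed the rule in CXCL8, ID2 and TNFAIP3 on the lower side and in DUSP4 on the higher side, the only 4 such genes.

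**Figure D3:**
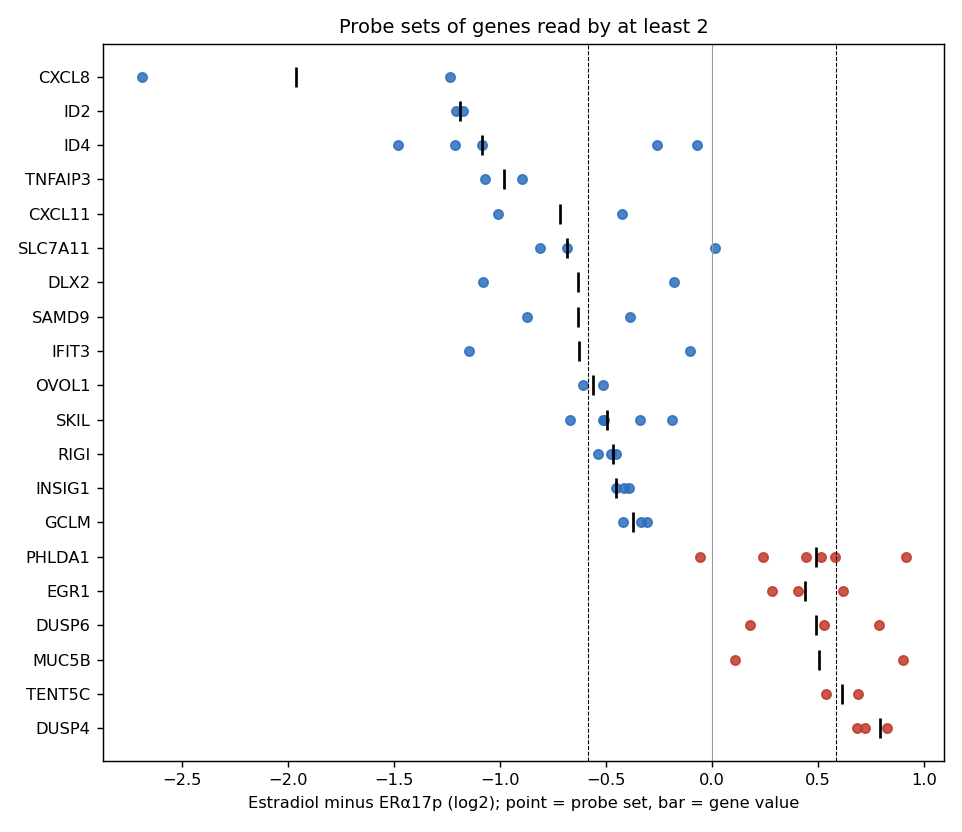
Difference of each probe set, estradiol minus ERα17p (x axis, log2), in 20 named genes with at least 2 probe sets (rows), with a black bar at the gene value and dashed lines at 1.5-fold. All probe sets of CXCL8, ID2, TNFAIP3 and DUSP4 lie past the lines, while ID4, IFIT3 and DLX2 have probe sets on both sides of the lower line.

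Agreement between probe sets was weak in general. In the 5015 genes with exactly 2 probe sets the values correlated with r = 0.158 across genes, which share both arrays, and had the same sign in 54.9%. In 58 of these genes 1 probe set alone was past 1.5-fold, and its partner had the same sign in 34. In 3 genes, CXCL8, ID2 and TNFAIP3, both were past it. Past 2-fold there were 6 genes with 1 such probe set, of which 5 had a partner of the same sign, and 2 genes with both. The spread of gene differences was 0.19 over genes with 1 probe set and 0.13 over genes with at least 2.

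**Figure D4:**
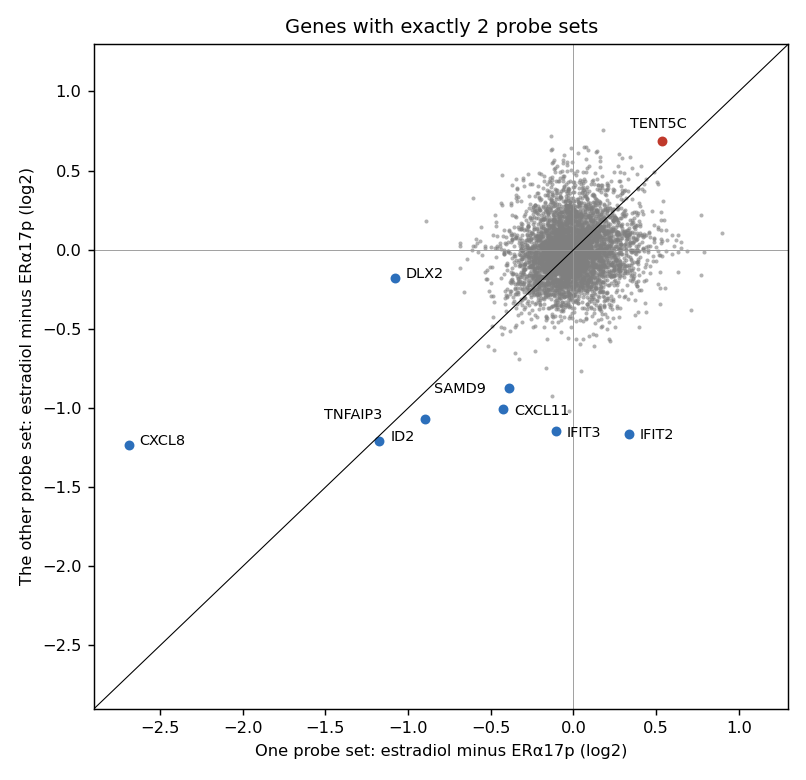
Genes with exactly 2 probe sets: difference estradiol minus ERα17p (log2) of one probe set (x axis) against the other (y axis), with the line of equal values. Most genes form a round cloud (r = 0.158), and ID2, TNFAIP3 and CXCL8 lie outside it with both probe sets past 1.5-fold.

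Genes whose probe sets agreed most on smaller differences were picked from these same values, so their agreement supports nothing. On the lower side these were OVOL1, an epithelial repressor gene (-0.56, with -0.61 and -0.51), MRNIP-DT (-0.49), TSPY26P (-0.46) and PIK3CD-AS2 (-0.46), besides PMAIP1, GBP2 and RIGI. On the higher side GPR132, a receptor gene for lysolipids, had 0.44 and 0.45, and PENK, the enkephalin precursor gene, 0.51 and 0.43. MAGEB4, TLX2 and SYT13 had 0.39, 0.39 and 0.40, and the noncoding genes LINC02239, LINC00937 and LINC00513 0.47, 0.46 and 0.42. None of these reached 1.5-fold.

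At the level of single probe sets with 1 symbol, 17 (of 13 genes) were at least 2-fold lower and 2 (of 2 genes) 2-fold higher. ID4 had 3 of the 17, and ID2 and CXCL8 had 2 each. The others included DLX1, a homeobox gene paired with DLX2, at -1.02, whose other probe set read -0.03, so that the gene value of -0.52 was short of the rule. Both on the higher side, of SCD5 (1.16) and HSPD1 (1.15), belonged to genes whose other probe sets kept the gene value short of the rule. DLX1, SCD5 and HSPD1 are named because of these values.

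The vehicle array has no part in the difference. Its place was counted for the lower and the higher genes but not over all genes, so the counts describe these genes only. In 25 of the 41 lower genes the array labelled vehicle lay above both treated arrays, and in 15 it was at least 2-fold above the baseline. In 9 it lay between them and nearer to ERα17p, as in ID2, in 4 between and nearer to estradiol, and in 3 below both. Of the 29 higher genes it lay between the treated arrays in 22, nearer to ERα17p in 16 and nearer to estradiol in 6, while it was below both in 6 and above both in 1. No higher gene was 2-fold above the baseline on it.

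Genes next to each other on a chromosome passed the rule in the same direction in 3 pairs: IFIT1 with IFIT3, CXCL10 with CXCL11 on chromosome 4, and TFF1 with TFF2. Counting the measured gene on either side, so that each pair counts from both of its genes, 4 of 82 neighbours of lower genes were lower and 2 of 57 neighbours of higher genes were higher. Of all genes 0.207% and 0.147% were. TATAA was in 34.1% of the lower genes' windows, in 17.4% of the higher genes' windows and in 14.8% of all windows. For CCAAT the shares were 41.5%, 30.4% and 32.4%. GGCGCC, letters of a BMP-response element, was in 24.4% of the lower genes' windows and 21.7% of the higher genes' windows. It was in 4519 of all 21490 windows, a share slightly below that of the higher genes. The lower genes with GGCGCC were BSN-DT, CMPK2, EDN2, N4BP3, NEURL3, NPAP1, NUAK1, PFKFB3 and TNFAIP3. It was not in the windows of ID1 to ID4, SMAD7 or DLX2. The windows had a median GC content of 60.8% for lower genes, 59.2% for higher genes and 62% for all.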

How the data were processed

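RNA of 3 SKBR3 samples, 1 array each, was hybridised to a whole-genome Affymetrix chip, per the labels' protocols. Per the submitters' processing notes the authors used RMA (version not given in the sources used here). Deposited values were taken as log2 distances from a baseline per probe set, since their medians lay near 0 (-0.02, -0.00 and 0.00). Exact mirror images between 2 of the 3 columns, found in 3979 probe sets, go with a median over more arrays than these, which were not used here.

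Of 54675 probe sets, 41091 had 1 symbol in the platform annotation, 1801 several, 11721 none here, and 62 were controls. Entrez IDs matched the RefSeq table of GRCh38.p14 for 41037, and 0 symbols changed. Gene values were medians over probe sets and differences were estradiol minus ERα17p. No filter on low signal was possible, since levels were not available, so signal over background is unknown. No test was possible with 1 array a side, and genes past 1.5-fold were counted. Counting by the size rule was checked on simulated data with known differences put in. That check says nothing about the noise of these arrays. Python 3.11.15, numpy 2.4.6, pandas 2.3.3 and matplotlib 3.10.9 were used.

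Named genes were the 15 with a symbol other than a locus number with the widest difference each way, the 10 each way with the widest agreement of at least 2 probe sets, list members past the rule and the 4 widest of each list, the ID genes, and GPER1, ESR1, ESR2, ERBB2 and EGFR. A few others are named for their position, their probe set value or their place outside the lists, after their values were seen. The members and the 43 gene lists were chosen with earlier results of these data known. Alternatives were other gene summaries, fewer probe sets, rescaled or recentred arrays and other size rules. Promoter windows are the 250 bases before RefSeq starts, and motifs were searched on both strands.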

Additional observations from a re-analysis of the deposited data

Results flagged for a closer look

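Probe sets without a gene symbol here stand outside the gene comparison, and 4 of them were at least 2-fold higher on the estradiol array and above the array labelled vehicle by as much. Probe set 1558048_x_at read 6.35 with estradiol, -0.03 with ERα17p and 0.02 on the vehicle array, a difference of 6.38 (83.1-fold), wider than that of any named gene. Probe set 234675_x_at read 2.39, 0.00 and -0.00 in the same order, a difference of 2.38. For 224549_x_at the values were 2.01, -0.22 and 0.10, a difference of 2.23. Probe set 237293_at read 0.64, -0.39 and -0.48, a difference of 1.03. Names ending in _x_at mark probes that several transcripts can bind. What these 4 probe sets measure was not determined.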

How the results depend on the processing

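No paired analysis was possible because each condition had 1 array. The 15 genes followed through the alternatives (ID1 to ID4, SMAD7, CXCL8, CCL20, TNFAIP3, IFIT1, HMOX1, DUSP4, FOSL1, TENT5C, TFF1 and TFF2) kept their direction wherever they could be read. ID1, ID2, ID3, CXCL8 and TNFAIP3 have only probe sets whose names end in _x_at or _s_at, so they could not be read without those. Only 6 of the 15 had at least 2 probe sets. The counts depend on how much a single reading is trusted. The 41 lower and 29 higher genes became 9 and 2 among genes with at least 2 probe sets, 8 and 2 when those also had to share a sign, and 7 and 0 at 2-fold. Quantile normalisation gave 42 and 20, so that 32.3% of the genes past the rule were higher in place of 41.4%. Of the 15 followed genes it moved 7, by the mark of a 0.1 shift on the log2 scale, among them ID1 to -1.46 and CXCL8 to -2.94. ID4 ran from -0.07 for its smallest probe set to -1.21 without probe sets whose names end in _x_at or _s_at. The other summaries and scalings, including a median of probe set differences added after seeing the data, kept both counts within 1.5 times. Among list medians, that of SMAD feedback genes was 0.00 when each gene was read by its smallest probe set, and list medians near 0 turned sign under several settings.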

Other observations

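Over all unnamed probe sets, 81 of 11721 were at least 1.5-fold higher with estradiol and 17 lower, whereas among the 41091 with 1 gene symbol 129 were higher and 119 lower. The medians were 0.04 and -0.02. At 2-fold 7 unnamed probe sets were higher and 0 lower, against 2 higher and 17 lower among those with 1 symbol.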
